A study of Mus musculus with 12 samples.

Results

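The baseline state of mouse pre-iPSCs was described from the 3 libraries of cells that received only DMSO, the solvent control, which are 3 of the 12 RNA sequencing libraries of the series and were chosen by their labels alone. The other 9 libraries come from pre-iPSCs after 48 h with AA (ascorbic acid, 50 μg/ml), 2i (a MEK inhibitor at 1 μM with a GSK inhibitor at 3 μM) or both. No contrast with them is made here. All cells, the DMSO controls included, were kept on irradiated feeders in serum-containing ESC medium and then spent the 48 h without the feeder layer. The 3 replicates are called A, B and C as in the labels, and the series describes them as biological triplicates. The labels name neither the line nor its cell of origin. According to the methods of the study, such lines were made by transducing Nanog-GFP reporter fibroblasts with pMX retroviruses carrying Oct4, Sox2, c-Myc and Klf4. Single ESC-like colonies without GFP were picked, so that each line is a clone. The methods also say that fibroblasts and astrocytes used to derive pre-iPSCs held the factors in a single cassette, and that astrocyte lines lacked the reporter. Which of these routes gave the cells sequenced here is not stated.

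Reprogramming from fibroblasts passes through a loss of somatic expression, a mesenchymal-to-epithelial transition in which E-cadherin and cell junctions appear, and a late step in which the cell's own pluripotency network is switched on. Pre-iPSCs are cells that stopped between the middle and the last of these steps. In mouse ESCs that network rests on Oct4 and Sox2 together with factors of naive pluripotency such as Nanog, Esrrb, Tbx3 and Prdm14.

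Levels are given as TPM, the deposited transcript abundance, which scales by gene length and by library and so can be compared between genes. A gene is called on where it had at least 1 TPM in all 3 DMSO libraries, silent where it had under 0.5 TPM in all 3, and intermediate otherwise. Of the 20325 genes in the files, 11026 (54.2%) were on, 7480 (36.8%) were silent and 1819 (8.95%) were intermediate, and 7326 (36%) had at least 10 TPM in all 3 libraries. The median gene had a mean of 4.17 TPM. The call is a rule on levels and not a test, and in bulk RNA fewer cells expressing a gene cannot be told apart from less RNA per cell. The libraries held 18710765, 49270873 and 16173322 expected counts. For a transcript of 2000 bases, 3 counts correspond to 0.187 TPM in A, 0.0690 in B and 0.185 in C, and this limit, which covers counting error only, applies to genes listed at 0. Silent genes and other members that lie outside the rule for naming were chosen after their values were seen.

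The 3 libraries were not equally alike. Across the 11752 genes with a mean of at least 1 TPM, Pearson's r of log2(TPM + 1) was 0.969 between B and C, 0.921 between A and C and 0.887 between A and B, as a description across genes. Of these genes, 4856 (41.3%) differed by more than 2-fold between their highest and lowest library, and A was the lowest for 3356 of them. Those 3356 genes had a median transcript GC content of 56.7%, against 48.5% for the genes within 2-fold. In A, genes with a GC content of 60 to 65% lay 1.15 below the mean of the 3 libraries on the log2(TPM + 1) scale and those of 35 to 40% lay 0.54 above it, whereas in B the same bins lay 1.01 above and 0.04 below. After a correction of each library for GC content, 22.2% of the genes differed by more than 2-fold. Their median GC content was 55.0% for those lowest in A, 57.6% for B and 52.3% for C, against 49.2% within 2-fold. Corrected differences can thus still depend on GC content. Levels below are as deposited unless they are called corrected. In all, 464 genes changed their call under the correction, none of them from on to silent or the reverse.

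**Figure D1:**
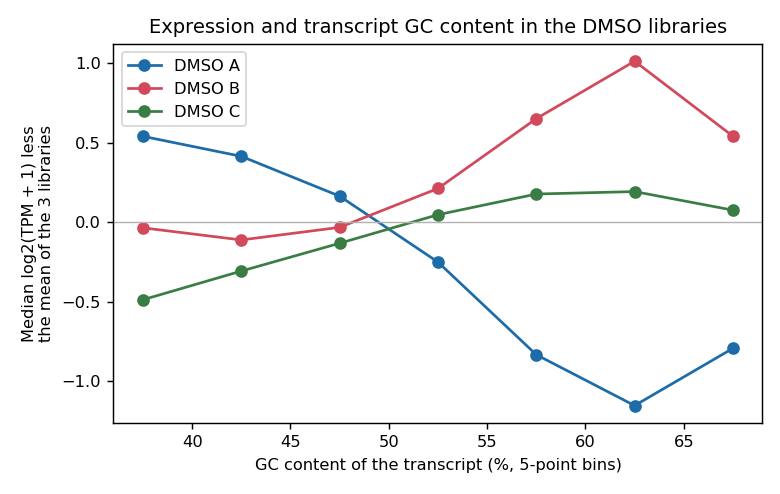
The x axis is the GC content of the transcript in bins of 5 percentage points, and the y axis is the median over genes of log2(TPM + 1) in 1 DMSO library less the mean of the 3 libraries, with a line for each library. Library A falls from 0.54 in the lowest bin to -1.15 between 60 and 65% GC while B rises to 1.01, and C stays between -0.49 and 0.19.

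The most abundant transcripts were those of protein synthesis and growth. Eef1a1, the elongation factor that brings tRNA to the ribosome, ranked first with 21922, 12930 and 17476 TPM in A, B and C. It alone took 1.74% of the mean TPM, and the 20 highest genes together took 10.7% (12.1% in A, 9.01% in B, 11.1% in C). Among these 20 were 11 genes of cytosolic ribosomal proteins, namely Rps20, Rps4x, Rpl7, Rps12, Rpl9, Rpl39, Rps27a, Rpl26, Rpl32, Rps3a and Rpl4, and the top 100 held 56. Of all 82 ribosomal protein genes, 79 were on and the family held 17.6% of the mean TPM, between 15.9% in A and 19.6% in C. The 3 silent members were Rpl10l, Rpl39l and Rpl3l, which are the paralogue genes of the family rather than its standard subunits.

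Most of the other genes among the 20 encode chaperones or growth-associated proteins. Ppia, the cyclophilin A isomerase, had 7273, 4600 and 6991 TPM, and Ptma, the prothymosin of proliferating cells, had 7800, 5023 and 5764. Npm1, the nucleolar protein nucleophosmin, was highest in A at 7589 TPM, against 3631 in B and 4168 in C. Tpt1, the translationally controlled tumour protein, Hspa8, the constitutive heat shock cognate (5185, 3588 and 4950 TPM), and the predicted gene Gm15450 had means of 4672, 4574 and 4857 TPM. Ly6a, which encodes the surface antigen Sca-1, was among the steadiest of the set at 4104, 4850 and 4884 TPM. All 20 genes had expected counts that were not whole in all 3 libraries, which arises where reads match more than 1 gene or copy, and their levels depend on how those reads were divided.

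The remaining member of the top 20 was Pou5f1, which encodes Oct4. It ranked 7th by its mean, with 1865 TPM in A, 9673 in B and 3795 in C, and held 0.511% of all TPM. Its place among the 20 rests on library B, since its rank was 59 in A, 2 in B and 27 in C, and without B its mean fell to 2830 TPM and its rank to 39.

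**Figure D2:**
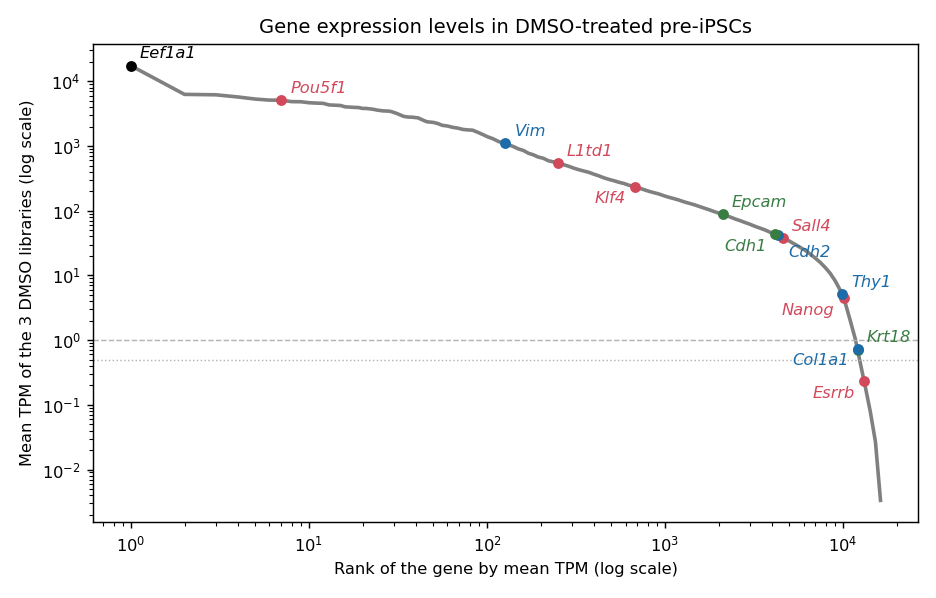
The x axis is the rank of each gene by its mean TPM over the 3 DMSO libraries and the y axis is that mean, both on log scales, with named genes as points (red for pluripotency, green for epithelial, blue for mesenchymal or fibroblast genes) and lines at 1 TPM (dashed) and 0.5 TPM (dotted). Pou5f1 sits at 5111 TPM near Eef1a1 at 17442, Epcam and Cdh1 lie at 87.7 and 43.2, and Nanog lies at 4.41.

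All 4 reprogramming factors were on, and their levels lay far apart. Myc, the growth factor-responsive oncogene, had 225, 864 and 255 TPM. Klf4, a zinc finger factor, had 34.1, 530 and 142 TPM. Sox2, the partner of Oct4 on DNA, was the lowest with 12.6, 98.1 and 15.0 TPM. All 4 were highest in B, where their summed level was 11166 TPM against 2137 in A and 4207 in C. Without B the means were 240 TPM for Myc, 88.0 for Klf4 and 13.8 for Sox2, against 448, 235 and 41.9 over the 3 libraries. Pou5f1 exceeded Sox2 by 148-fold in A, 98.6-fold in B and 253-fold in C. With the GC correction, the values of A, B and C became 4600, 8268 and 3974 TPM for Pou5f1, 318, 872 and 251 for Myc, 57.7, 512 and 141 for Klf4 and 15.2, 102 and 14.6 for Sox2, with B still highest for each. Introduced copies, whether retroviral or in a cassette, carry the same coding sequence, so reads from the endogenous genes and from the transgenes cannot be told apart in these gene-level values.

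Of 13 factors of naive pluripotency, 9 (69.2%) were on and 4 (30.8%) were silent, against 54.2% and 36.8% of all genes. Their median of 4.41 TPM was close to that of all genes. Of the 9, 4 had at least 10 TPM in every library. Sall4, a zinc finger factor of the Oct4 network, led the list with 45.3, 33.9 and 35.4 TPM. It was followed by Klf5 at 29.2, 31.7 and 39.8 and by Nr0b1, which encodes the nuclear receptor Dax1, at 25.0, 21.9 and 11.7. Nr5a2, a nuclear receptor that can bind the Pou5f1 promoter, had 26.2, 15.7 and 15.3 TPM. Tcfcp2l1, a transcription factor of the LIF response, had 10.2, 7.84 and 8.89 TPM, and Klf2 had 5.98, 6.45 and 7.35. These factors were thus well above the 1 TPM limit, although below Pou5f1 by a large margin. With the GC correction, Klf5 (97.6, 24.4 and 44.4 TPM) came before Sall4 (68.2, 33.8 and 34.9) by its mean. Corrected Klf2 had 22.5, 4.79 and 8.42 TPM. The corrected levels of Klf5, Sall4 and Klf2 were thus less even, with A the highest.

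Nanog, the homeodomain factor whose reporter was dark when reporter lines were picked, was on at a low level, with 2.93, 3.16 and 7.14 TPM. Pou5f1, whose level can include reads from introduced copies, exceeded it by 636-fold in A, 3061-fold in B and 531-fold in C. On the log2 scale this ratio was 9.98 ± 1.39 (SD, n = 3), or 10.5 ± 1.17 with the GC correction. The corrected Nanog levels were 2.14, 3.39 and 7.08 TPM. Zfp42, which encodes the ESC marker Rex1, had 1.71, 2.29 and 3.10 TPM, and Gbx2, a homeobox factor of the naive state, had 1.79, 1.51 and 3.35. The silent members were Esrrb (0.23, 0.15 and 0.31 TPM), an orphan nuclear receptor, Tbx3 (0.12, 0.05 and 0.15), Prdm14 (0.19, 0.03 and 0.05), a repressor of DNA methylation and of differentiation genes, and Tcl1 (0, 0.10 and 0.18), a cofactor of Akt kinase. 

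Other genes associated with ESCs spanned a wider range. Of 16, 9 were on, 3 were silent and 4 were intermediate, with a median of 16.0 TPM, and the 56.2% that were on is near the 54.2% of all genes. L1td1, an RNA-binding protein derived from a LINE-1 element, had 751, 414 and 491 TPM. Fbxo15, an F-box gene known as an Oct4 and Sox2 target, had 351, 206 and 211 TPM, and Tdgf1, the Nodal co-receptor Cripto, had 111, 91.6 and 165. Dppa5a, an RNA-binding protein of early embryonic cells, was on at 45.1, 35.6 and 78.8 TPM. By contrast, its namesakes Dppa2 (0.51, 0.37 and 0.94 TPM) and Dppa4 (0.08, 0.21 and 0.56), a pair of chromatin proteins that act together, were intermediate and did not reach 1 TPM in any library.

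Fgf4, the ligand through which ESCs signal to themselves, had 54.5, 61.7 and 46.9 TPM, and Tdh, the threonine dehydrogenase of mouse ESCs, had 64.5, 112 and 117. Lin28a, an inhibitor of let-7 maturation, was intermediate at 1.47, 0.57 and 2.44 TPM. Utf1 (0, 0.20 and 0 TPM), Dnmt3l (0, 0.03 and 0) and Dppa3 (0.16, 0.06 and 0.30) were silent.

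Of 10 genes of the primed epiblast, 4 (40%) were on, 2 (20%) were silent and 4 were intermediate. Among all genes 54.2% were on and 36.8% were silent. Zic2, a zinc finger factor of early embryos, had 61.7, 49.8 and 29.8 TPM, or 148, 42.97 and 31.1 when corrected. The de novo DNA methyltransferase Dnmt3b had 9.21, 9.08 and 17.6 TPM, and Otx2, a homeobox factor of the epiblast and anterior neural plate, had 3.66, 4.58 and 8.46. Fgf5, the standard marker of the primed epiblast, was silent, as was Lefty1. With the GC correction, 6 of the 10 were on.

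Of 33 epithelial genes, 22 (66.7%) were on, against 54.2% of all genes, 6 were silent and 5 were intermediate, and their median of 7.07 TPM was above the 4.17 of all genes. The highest were components of cell junctions. Tjp1, the tight junction scaffold ZO-1, had 182, 119 and 106 TPM. Jup, or plakoglobin, had 24.9, 208 and 143, and F11r, the junctional adhesion molecule JAM-A, had 83.1, 135 and 137. Epcam, a surface protein of epithelia and ESCs, was on at 66.1, 98.7 and 98.3 TPM. Cdh1, the gene of E-cadherin, had 31.8, 50.0 and 47.8 TPM.

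Library A was the lowest for several of these. For Jup, whose transcript is GC-rich, the corrected values were 71.2, 168 and 154 TPM, so A remained the lowest, with a smaller gap. The keratins of simple epithelia were uneven. Krt19 had 23.8, 142 and 129 TPM, or 59.3, 121 and 135 when corrected, and Krt8 had 4.72, 19.96 and 17.9, but Krt18, the usual partner of Krt8 in its filaments, was intermediate at 0.18, 0.39 and 1.57. Krt8 exceeded Krt18 by 4.63 ± 1.09 (SD, n = 3) on the log2 scale. The silent members were Grhl2, a transcriptional activator of Cdh1 in epithelia, Ap1m2, Rab25, Cldn6, Cdh3 and Krt7.

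Mesenchymal genes were on in the same cultures. Of 18, 12 (66.7%, the same share as for the epithelial list) were on, against 54.2% of all genes. A further 2 were silent and 4 were intermediate. The median of the 18 was 3.33 TPM, below the 4.17 of all genes. Vim, the intermediate filament of mesenchymal cells, had 1096, 1163 and 1026 TPM, 34.4, 23.3 and 21.5 times the level of Cdh1 in the same library. Sparc, a matrix glycoprotein, had 338, 728 and 524 TPM, S100a4, a calcium-binding protein of motile cells, had 342, 339 and 507, and Fn1, or fibronectin, had 246, 732 and 197. Cdh2, the gene of N-cadherin, had 40.3, 53.9 and 30.9 TPM. The levels of Cdh1 and Cdh2 overlapped, and the log2 ratio of Cdh1 to Cdh2 was 0.06 ± 0.51 (SD, n = 3), that is a ratio of 0.790 in A, 0.927 in B and 1.54 in C.

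Of 8 listed transcription factors of the mesenchymal programme, 4 were on, a share near the 54.2% of all genes. Zeb1, a repressor of Cdh1, had 30.9, 21.0 and 16.3 TPM. Twist1 (2.51, 2.04 and 2.54 TPM), Prrx1 (3.31, 3.96 and 2.13) and Snai2 (2.86, 1.43 and 1.38) were on near the limit. Snai1 and Zeb2 were intermediate, and Twist2 and Foxc2 were silent, although Foxc2 became intermediate with the GC correction.

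Markers of the mature fibroblast were low throughout. Of 19, 5 (26.3%) were on, against 54.2% of all genes. A further 8 (42.1%) were silent, near the 36.8% of all genes, and 6 were intermediate. None of the 19 reached 10 TPM in all 3 libraries, and their median was 0.527 TPM. Fbn1, or fibrillin-1, led with 5.32, 10.4 and 3.10 TPM, followed by Cd248, or endosialin, with 1.77, 10.9 and 4.93, or 6.53, 8.17 and 5.62 when corrected. Thy1, the surface marker used to follow the loss of the fibroblast state, had 2.64, 5.55 and 7.21 TPM, and Epcam exceeded it by 25.0-fold, 17.8-fold and 13.6-fold. The fibrillar collagen Col1a1 had 0.05, 1.97 and 0.18 TPM, and Col3a1 was silent at 0.04, 0.17 and 0.19. Lum, Dpt and Fap were listed at 0 in all 3 libraries, where 3 counts would be 0.180, 0.0665 and 0.179 TPM for Lum.

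The summed level of the 19 fibroblast markers was 14.1 TPM in A, 50.1 in B and 23.2 in C, or 26.0, 45.2 and 24.0 after the GC correction, and 13 of them were highest in B. B was also the library with the most Pou5f1, Myc, Klf4 and Sox2. The part of residual feeder cells in these levels was not tested.

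**Figure D3:**
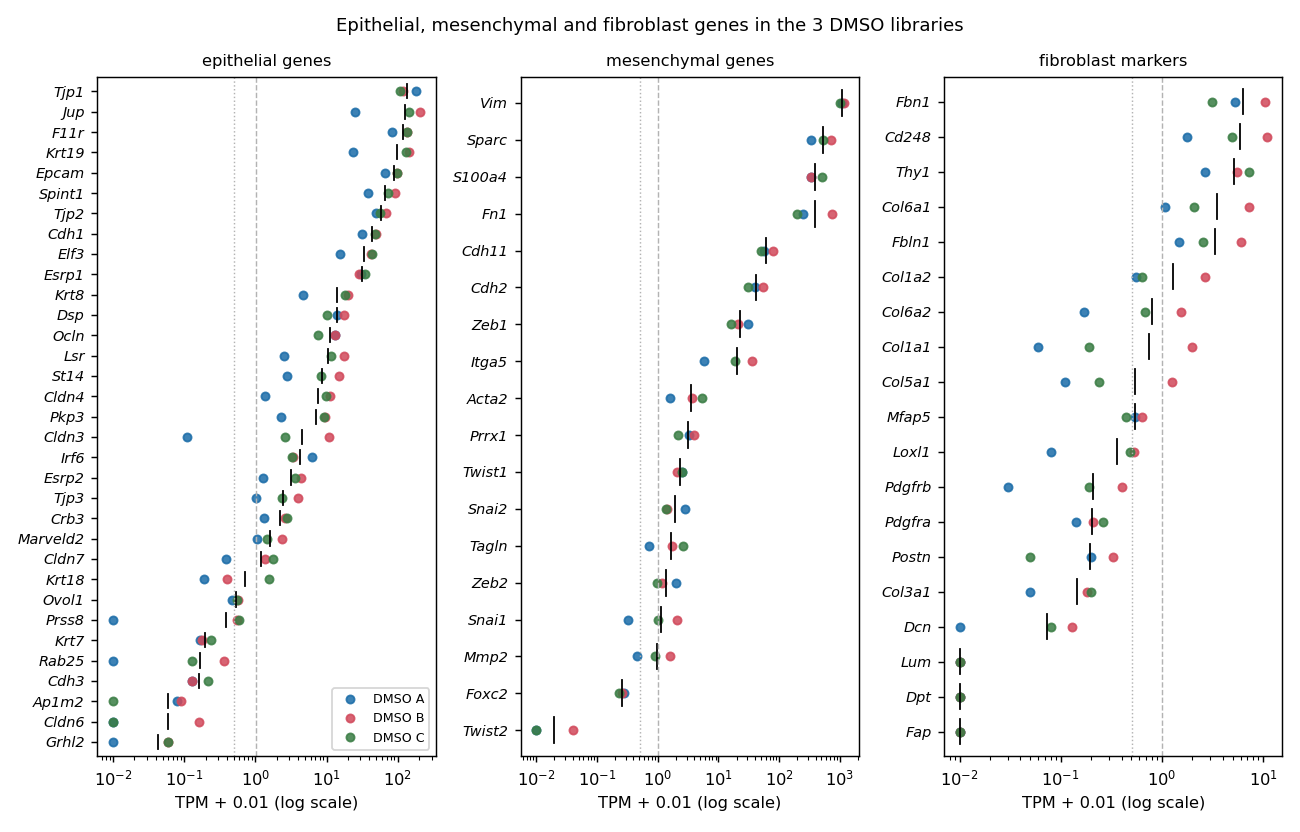
Each row is a gene of the epithelial, mesenchymal or fibroblast list, the x axis is TPM + 0.01 on a log scale, coloured points are the 3 DMSO libraries and black bars their means, with lines at 1 TPM (dashed) and 0.5 TPM (dotted). Tjp1, Epcam and Cdh1 lie beside Vim, Sparc and Cdh2 above 10 TPM, whereas Fbn1 leads the fibroblast markers at 6.29 TPM and Lum, Dpt and Fap are at 0.

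Among all genes 36.8% were silent, and the share was 57.9% of the mesoderm, 68.4% of the endoderm, 55.6% of the trophectoderm, 60% of the germline, 62.5% of the astrocyte and 46.2% of the neuroectoderm list, but 25% of the keratinocyte and 28.6% of the blood and endothelial list. Each list had members that were on. Of 13 neuroectoderm genes, 5 were on and 6 were silent. Nes, the intermediate filament of neural progenitors, had 53.5, 71.6 and 46.8 TPM, Sox1, a marker of the neural plate, had 26.9, 17.3 and 23.5, and Olig2, a factor of oligodendrocyte and motor neuron progenitors, had 6.49, 8.08 and 5.78. Pax7 was on at 1.05, 1.34 and 1.17 TPM, while Pax6 (0.48, 0.19 and 0.14 TPM) was silent and Neurog2 was listed at 0. Of 8 astrocyte markers, only Aldoc, a glycolytic aldolase, was on, at 29.9, 52.5 and 30.7 TPM. Gfap, the defining filament of astrocytes, had 0, 0 and 0.05 TPM, and Aqp4 was listed at 0. Fabp7 (mean 0.79 TPM) and Slc1a3 (mean 0.437 TPM) were the next highest of that list and were intermediate.

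Of 19 mesoderm genes, 2 were on, 11 were silent and 6 were intermediate. Eomes, a T-box factor of early mesendoderm and trophoblast, had 2.26, 2.18 and 2.68 TPM, Foxc1 had 2.59, 2.60 and 1.29, and Gata2 was intermediate with a mean of 1.31. T, or Brachyury, Nkx2-5 and Msgn1 were listed at 0. Of 19 endoderm genes, 3 were on and 13 were silent. The basement membrane collagens Col4a1 (4.32, 26.6 and 11.9 TPM) and Col4a2 (2.63, 23.6 and 9.10, or 8.99, 18.02 and 10.2 when corrected) led that list but are not restricted to endoderm, and Hhex, a homeobox factor of anterior endoderm, had 10.1, 6.97 and 9.19. Sox17, Foxa2, Pdx1, Afp and Ttr were listed at 0, and Gata4 (0.11, 0.15 and 0.21 TPM) and Gata6 (0.27, 0.28 and 0.23) were silent. Gata6 moved to intermediate with the GC correction.

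Of 9 trophectoderm genes, 2 were on and 5 were silent. Tead4, the DNA-binding partner of Yap, had 41.0, 65.4 and 52.8 TPM and Gcm1, a factor of labyrinth trophoblast, had 1.37, 1.76 and 4.33, while Gata3 was intermediate with a mean of 0.57 TPM and Cdx2 was silent at 0, 0.08 and 0.23. Of 8 keratinocyte genes, Perp, a p53 target of desmosomes, had 432, 337 and 312 TPM and Sfn, the epithelial 14-3-3 protein, had 4.84, 67.0 and 87.8, with corrected values of 15.2, 52.6 and 96.5. The basal keratins were lower. Krt14 had 0, 2.87 and 1.89 TPM and Krt5 had 0, 0 and 0.06.

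The blood and endothelial list was small, and 4 of its 7 members (57.1%) were on, a share near the 54.2% of all genes. Tek, the angiopoietin receptor Tie2, had 16.0, 15.5 and 9.09 TPM, Gata1, the erythroid factor, had 3.42, 6.13 and 7.59, and Runx1, the factor of blood emergence, had 7.10, 5.11 and 3.21. Cd34 was also on. The defining genes of whole lineages were not, since Ptprc, the pan-leukocyte CD45, had a mean of 0.00667 TPM and Cdh5, the endothelial cadherin, had 0.0633.

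Of 15 germline genes, 2 were on, 9 were silent and 4 were intermediate. Kit, the receptor of stem cell factor, had 11.2, 17.0 and 11.7 TPM, and Piwil2, a protein of the piRNA pathway, had 1.60, 1.79 and 1.04. Kit is also used outside the germline. Prdm1 (1.27, 1.16 and 0.81 TPM) was intermediate. Dazl, an RNA-binding protein of germ cells, Mael, a piRNA factor, Stra8 and Tex101 were listed at 0, where 3 counts of Dazl would be 0.127, 0.0469 and 0.126 TPM.

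Promoter sequence was compared with these calls, since CpG density was not part of the choice of genes. In RefSeq promoters of GRCm38.p6, taken from 250 bases before to 50 after the gene start, 94.2% of all 27025 windows held at least 1 CG, which reads the same on both strands, and 36.5% were CpG-rich, defined as an observed-to-expected CpG ratio of at least 0.6. All 9 silent germline genes matched a promoter and 8 of them were CpG-rich, with a median of 20 CpG per window. Of the 11026 genes that were on, 80.9% matched and 75.96% of those were CpG-rich. The 5 silent trophectoderm genes also all matched, and 1 was CpG-rich. Of the 5 silent astrocyte markers 4 matched and none was CpG-rich, and none of the 4 blood and endothelial genes that were on was CpG-rich. Other lists of matched genes that were on varied. CpG-rich were 3 of 3 endoderm, 2 of 2 mesoderm, 3 of 4 neuroectoderm and 9 of 9 proliferation genes. So were 13 of 15 chromatin enzymes, 4 of 4 Y-linked, 5 of 6 reference and 3 of 5 cell cycle genes. The count was 4 of 8 for imprinted genes, 6 of 15 for Hox genes and 0 of 1 for astrocyte markers. The same comparison was void for all silent genes, of which 78.0% matched, and for the naive, ESC-associated, primed, epithelial, mesenchymal and fibroblast lists, because fewer than 80% of their genes had an entry.

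The 250 bases before the start are printed as examples of CpG-poor and CpG-rich promoters, for 3 pluripotency genes that were on, Nanog and Zfp42 at low and Tdgf1 at high levels, and for 2 germline genes listed at 0. They were chosen with their values known and do not stand for their groups. Capitals mark each CG, and all sequences are from RefSeq, GRCm38.p6, on the strand of the gene. Nanog (chr6:122707239-122707488, plus strand) holds 3 CG, Zfp42 (chr8:43307010-43307259, minus strand) holds 9, Tdgf1 (chr9:110946159-110946408, minus strand) holds 7, Dazl (chr17:50293621-50293870, minus strand) holds 20 and Mael (chr1:166238745-166238994, minus strand) holds 18.
Nanog: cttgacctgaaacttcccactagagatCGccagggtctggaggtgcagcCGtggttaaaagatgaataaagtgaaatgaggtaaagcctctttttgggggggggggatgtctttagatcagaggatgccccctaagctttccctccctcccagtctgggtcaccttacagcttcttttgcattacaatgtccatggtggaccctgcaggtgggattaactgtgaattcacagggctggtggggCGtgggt
Zfp42: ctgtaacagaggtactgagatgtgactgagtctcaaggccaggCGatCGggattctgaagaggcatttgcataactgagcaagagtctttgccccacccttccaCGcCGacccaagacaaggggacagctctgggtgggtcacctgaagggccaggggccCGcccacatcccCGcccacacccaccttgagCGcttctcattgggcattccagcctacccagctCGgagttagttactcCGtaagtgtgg
Tdgf1: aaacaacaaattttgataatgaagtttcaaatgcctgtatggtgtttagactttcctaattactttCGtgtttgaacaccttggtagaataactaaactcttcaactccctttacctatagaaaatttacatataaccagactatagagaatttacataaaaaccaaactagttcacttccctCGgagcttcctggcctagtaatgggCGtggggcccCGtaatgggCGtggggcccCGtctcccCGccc
Dazl: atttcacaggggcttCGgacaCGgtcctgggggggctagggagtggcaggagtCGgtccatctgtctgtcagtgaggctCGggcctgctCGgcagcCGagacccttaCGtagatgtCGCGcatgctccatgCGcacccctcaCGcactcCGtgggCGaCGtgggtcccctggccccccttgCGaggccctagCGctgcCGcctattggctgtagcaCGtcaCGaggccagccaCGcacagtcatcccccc
Mael: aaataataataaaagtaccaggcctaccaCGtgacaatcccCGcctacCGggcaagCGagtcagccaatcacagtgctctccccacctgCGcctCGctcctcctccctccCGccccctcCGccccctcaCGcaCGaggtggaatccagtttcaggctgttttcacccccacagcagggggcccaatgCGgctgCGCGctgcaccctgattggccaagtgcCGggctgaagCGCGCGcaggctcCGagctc
Of the other pluripotency genes that were on, some had CpG-rich windows and others did not. In the full window, the observed-to-expected ratio was 0.974 for Klf4, 0.889 for Klf2, 0.861 for Gbx2, 0.819 for Sox2 and 0.774 for Fgf4. It was 0.152 for Nr5a2, 0.374 for Pou5f1, 0.551 for Nr0b1 and 0.559 for L1td1, against 0.192 for Nanog and 0.795 for Dazl.

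The Hox genes, which set position along the body axis, differed by cluster. Of 39 measured Hox genes, 17 (43.6%) were on, 15 (38.5%) were silent and 7 were intermediate. Among all genes 54.2% were on and 36.8% were silent. In the HoxA cluster on chromosome 6 of mm9, 9 of 11 genes were on and none was silent. In the HoxD cluster on chromosome 2, 6 of 9 were on and 1, Hoxd12, was silent. In the HoxB cluster on chromosome 11, 1 of 10 was on and 8 were silent, and in the HoxC cluster on chromosome 15, 1 of 9 was on and 6 were silent. The sum over a cluster was 65.5, 94.4 and 64.7 TPM for HoxA and 112, 112 and 78.3 for HoxD, but 3.27, 3.90 and 2.72 for HoxB and 5.71, 5.23 and 3.73 for HoxC.

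The highest were Hoxd8 (41.7, 30.8 and 26.6 TPM), Hoxd13 (46.0, 28.8 and 23.7) and Hoxa10 (24.2, 31.3 and 22.2). Levels did not run evenly along the clusters. Hoxd13, the last gene of its cluster, stood beside the silent Hoxd12 (0.15, 0.36 and 0.19 TPM) and the low Hoxd11 (1.38, 0.92 and 1.35). The genes that were on in the other clusters were both of paralogue group 4, Hoxb4 (2.63, 2.68 and 1.84 TPM) and Hoxc4 (4.42, 3.26 and 2.08). With the GC correction 17 of the 39 were again on.

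**Figure D4:**
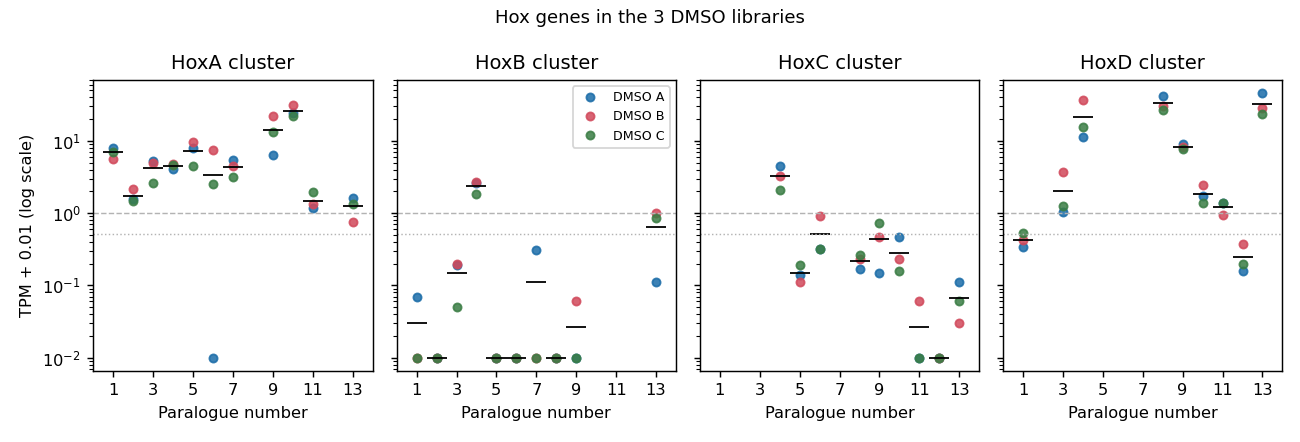
The x axis is the paralogue number of the Hox gene, the y axis is TPM + 0.01 on a log scale, coloured points are the 3 DMSO libraries and black bars their means, in a panel for each cluster, with lines at 1 TPM (dashed) and 0.5 TPM (dotted). No HoxA gene is silent, HoxD reaches 33.0 TPM at Hoxd8, and in HoxB and HoxC only Hoxb4 and Hoxc4 are above the dashed line in all libraries.

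The share of members that were on differed between other families of developmental regulators, from 0% in Nkx to 100% in Id, against 54.2% of all genes. Of 19 Sox genes 7 were on, led by Sox11 (85.2, 58.2 and 34.5 TPM), Sox2 and Sox13 (10.5, 64.1 and 42.5), and 10 were silent. Of 17 Klf genes 13 were on, led by Klf4, Klf3 (150, 171 and 135 TPM) and Klf10 (143, 135 and 113). Of 44 Fox genes 17 were on, led by Foxo4 (131, 136 and 85.3 TPM), Foxd1 (85.6, 65.7 and 33.6) and Foxm1 (39.5, 81.1 and 59.9), the last a factor of mitotic gene expression. All 4 Id genes, inhibitors of basic helix-loop-helix factors and targets of BMP signalling, were on, with Id1 at 139, 271 and 336 TPM. Of 16 T-box genes 6 were on, led by Tbx15 (22.3, 13.2 and 13.0 TPM), Tbx4 (6.44, 13.6 and 15.5) and Tbx20 (10.01, 7.36 and 5.21). In the Nkx family none of 13 was on, in the Pax family 1 of 9, in the Gata family 1 of 6 and in the Lhx family 1 of 8.

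Structural families were unevenly represented, with 10% of keratins, 26.1% of claudins, 14.6% of collagens and 42.3% of integrins on, against 54.2% of all genes. Of 50 keratins 5 were on and 26 were listed at 0, and of 23 claudins 6 were on, led by Cldn11 (336, 408 and 174 TPM) and Cldn12 (86.9, 80 and 55.5). Of 41 collagens 6 were on, led by Col18a1 (4.16, 70.01 and 31.9 TPM), and the summed collagen level was 20.1 TPM in A, 161 in B and 69.5 in C, or 46.8 in A and 133 in B after the GC correction. Of 26 integrins 11 were on, led by Itgb1 (539, 540 and 283 TPM), the common beta subunit, Itga6 (244, 271 and 142), a laminin receptor subunit, and Itgb5 (33.2, 117 and 49.0).

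Genes of cell division were on throughout. All 11 proliferation genes were on, against 54.2% of all genes, with a median of 214 TPM. Pcna, the clamp of DNA replication, had 1030, 672 and 693 TPM, Top2a, the mitotic topoisomerase, had 694, 359 and 347, and Ccnb1, or cyclin B1, had 573, 340 and 448. Inhibitors of the cell cycle were on beside them, 6 of the 7 genes in that list. Cdkn1a, or p21, had 228, 332 and 406 TPM, Trp53, or p53, had 138, 249 and 291, and Rb1 had 140, 74.3 and 47.8. Cdkn2a, the Ink4a and Arf locus, was on at 16.1, 81.7 and 42.6 TPM, or 40.9, 69.1 and 44.8 after the GC correction.

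All 16 chromatin enzymes examined were on, against 54.2% of all genes. Trim28, the corepressor of endogenous retroviruses, led with 163, 396 and 410 TPM, followed by the maintenance methyltransferase Dnmt1 (124, 201 and 146) and the H3K9 demethylase Kdm3a (133, 116 and 83.4). Kdm3b, its paralogue, had 54.4, 67.5 and 47.7 TPM, and Tet1, which oxidises 5-methylcytosine, had 46.6, 36.0 and 20.6. Mbd3, a subunit of the NuRD complex, was the least even at 6.48, 108 and 60.1 TPM, and its transcript had a GC content of 62.9%. Its corrected values were 27.4, 77.8 and 70.8 TPM, so A remained the lowest.

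Of 19 signalling genes, 16 (84.2%) were on, against 54.2% of all genes. Ctnnb1, or beta-catenin, had 766, 674 and 758 TPM, Lifr, the LIF receptor subunit, had 131, 114 and 58.2, and Stat3, its transcriptional effector, had 69.5, 104 and 89.4. Egfr, the epidermal growth factor receptor, had 68.3, 75.8 and 33.8 TPM. Igfbp3, a binding protein of insulin-like growth factors, had 62.3, 100 and 84.6, and Tgfbr2, the type II TGF-beta receptor, had 41.5, 47.4 and 37.8. Axin2, a standard transcriptional target of Wnt signalling, was silent with a mean of 0.14 TPM although 8 of 10 Frizzled receptors were on, led by Fzd5 at 32.1, 35.3 and 17.6 TPM, and Lef1 was intermediate.

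Ligands were few, with 9.09% of Fgf, 10.5% of Wnt and 10% of Bmp ligands on, against 54.2% of all genes. Of 22 Fgf ligands, 2 were on, Fgf4 and Fgf13, the latter at 3.44, 1.58 and 2.05 TPM. The ligand Fgf11 was intermediate at 0.57, 6.33 and 1.51 TPM. Among their receptors Fgfr1 had 27.0, 95.6 and 55.7 TPM and Fgfr3 had 3.73, 8.18 and 4.85, while Fgfr2 was intermediate at 0.17, 0.21 and 0.66. Of 19 Wnt ligands 2 were on, Wnt8a (1.47, 4.80 and 4.58 TPM) and Wnt9a (1.10, 2.47 and 1.34). Of 10 Bmp ligands, only Bmp4 was on, at 1.12, 2.92 and 2.04 TPM.

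Of 7 surface markers used to stage reprogramming, 4 (57.1%) were on, a share near the 54.2% of all genes. Cd44, the hyaluronan receptor that falls as cells near the pluripotent state, had 629, 588 and 291 TPM. Fut9, a fucosyltransferase that can make the SSEA1 epitope, had 29.98, 31.5 and 8.70 TPM, and its relative Fut4 was silent. Alpl, the alkaline phosphatase of ESCs, had 2.92, 10.3 and 3.92 TPM, and Thy1 was on as described. The late markers Icam1 and Pecam1 were intermediate, with means of 1.02 and 0.473 TPM.

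Of 15 imprinted genes, 9 (60%) were on, near the 54.2% of all genes, and 4 (26.7%) were silent, against 36.8%. The paternally expressed Peg3 had 486, 530 and 295 TPM, Peg10 had 446, 317 and 535, and Grb10 had 253, 155 and 140. In the Dlk1-Dio3 domain on chromosome 12 of mm9, Dlk1 and Dio3 were listed at 0 and Rtl1 was silent with a mean of 0.177 TPM. Other genes of this domain were not examined, and its imprinting was not tested. All 4 measured genes of a short Y-linked list were on, between 14.8 TPM for Uty in C and 163 TPM for Eif2s3y in A.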

How the data were processed

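RNA was sequenced from mouse pre-iPSCs in 12 libraries, and the 3 DMSO libraries were described. Per the study's methods, reads were trimmed, filtered for quality and mapped with Bowtie2 to mm9 RefSeq genes before RSEM estimated gene expression (the submitters' processing notes name Bowtie, RSEM 1.2.4 and mm9). The authors deposited raw expected counts, which can hold fractions of a read, and TPM, which have the same sum in each library. The FPKM deposited by the authors served only as an alternative. The TruSeq RNA kit does not mark strand, so sense and antisense transcripts at one place are not separated.

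From these, levels of the 3 libraries and their mean and SD were computed, and no test was made because no contrast was set. Genes on had at least 1 TPM in all 3 libraries and silent genes under 0.5 TPM. The GC content of transcripts was matched to the mm9 annotation by symbol (19871 genes), accession (141) or synonym (18), and 295 genes had no match. For the GC correction a loess curve (span 0.4) was fitted for each library to how far its log2 scaled counts (prior count 2) lay from their 12-library average, using 13300 genes with at least 10 counts in 3 libraries, and was subtracted. It was tested on simulated data. Families were taken by symbol pattern. The lists and members were chosen with earlier results of these data known.

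The genes named are the 20 highest, the highest 3 of each list and family, all reprogramming and naive factors, Cdh1, Cdh2, Epcam, Vim, Thy1, Zfp42, Dppa2, Dppa4, Dppa5a, Egfr, Igfbp3, Tgfbr2 and, among genes with a mean of at least 10 TPM, the 10 with the largest ratio between libraries. The alternatives were other limits for on and silent, calls from the mean or from at least 2 libraries, FPKM, expected counts, median-of-ratios scaling, the GC correction and leaving out each library. Total expected counts ranged from 16173322 to 49270873. Python 3.11.15, numpy 2.4.6, pandas 2.3.3, scipy 1.17.1, statsmodels 0.14.6 and matplotlib 3.10.9 were used. The treated libraries entered only the GC curves. A few genes that met the rule for naming are not reported here.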

Additional observations from a re-analysis of the deposited data

How the results depend on the processing

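Calls depend on their limits most where levels are near 1 TPM. With genes on from 0.5 TPM, 6 endoderm and 4 germline genes were on and 1137 genes were intermediate. With genes on from 2 TPM, 2 fibroblast, 3 neuroectoderm, 1 mesoderm, 1 trophectoderm and 1 germline gene were on. With silence set under 0.1 TPM, 52 listed genes were silent (0 naive, 1 ESC-associated, 0 primed, 2 epithelial, 1 mesenchymal, 3 fibroblast, 1 blood or endothelial, 0 signalling), and 3658 of all genes and 84 of the listed were intermediate. Under 1 TPM, 6 ESC-associated, 4 primed, 2 surface and 2 signalling genes were silent, and 1118 of all and 31 of the listed were intermediate. Calls from the mean put 5 endoderm and 4 germline genes on, 2 surface and 2 signalling genes silent, and left 628 and 23 intermediate. Calls from at least 2 of the 3 libraries put 4 keratinocyte and 4 germline genes on, 4 primed and 2 signalling genes silent, and left 657 and 19 intermediate. In FPKM, 2 fibroblast, 3 neuroectoderm, 0 mesoderm, 1 trophectoderm and 1 germline gene were on and 6 ESC-associated, 4 primed, 2 surface and 2 signalling genes were silent, since the limits were kept while the scale changed. With the GC correction 1 mesenchymal gene was silent and 22.2% of genes differed by over 2-fold. By expected counts, which do not divide by length, the 20 highest genes held 6.49% and 9 of them were shared with the TPM list. Leaving out 1 library moved the germline genes on between 2 and 4, the keratinocyte genes on between 2 and 4 and the silent signalling genes between 1 and 2. The 4 germline genes on arose without DMSO C, the 4 keratinocyte genes without DMSO A and the 2 silent signalling genes without DMSO C. Of the 178 named genes, the GC correction moved the mean of 24 by more than 1 SD, and the mean moved by more than 1.5-fold for 3 without A, 25 without B (among them Pou5f1, Myc, Klf4 and Sox2) and 6 without C. Median-of-ratios scaling (factors 0.952, 1.13 and 0.963) moved no list count beyond 1.5 times. No paired analysis was possible because the values come from 1 condition and no test, although the letters A, B and C recur in the other conditions. Library A limits GC-rich genes most, since 477 genes were under 1 TPM in A alone (median GC content 57.3%), against 40 in B and 132 in C. The cause was not tested.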

Other observations

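The genes with the largest ratios between libraries, among those with a mean of at least 10 TPM, were mostly lowest in A. Rpl36, a protein of the large ribosomal subunit, had 13.5 TPM in A, 1125 in B and 126 in C, or 47.6, 852 and 142 after the GC correction. Dpm3, a subunit of dolichol-phosphate mannose synthase, had 0.34, 63.1 and 5.70 TPM, Zfp414 had 0.33, 33.3 and 15.5, and Josd2, a deubiquitinase, had 0.45, 23.2 and 7.80. Timm13, a mitochondrial import chaperone, had 1.84, 77.4 and 42.3 TPM, Ndufa11, a subunit of complex I, had 1.29, 45.5 and 29.5, Ncln had 2.04, 73.2 and 20.2, and Ltbp4, a binding protein of latent TGF-beta, had 3.69, 143 and 21.1. After the correction A was still the lowest for each of these genes, with Ltbp4 at 14.7, 105 and 24.5, Ncln at 7.19, 55.4 and 22.8 and Josd2 at 1.93, 16.6 and 9.22. Because the genes were picked for their ratio in these data, this does not separate them from the relation to GC content. Gm4535 had 0, 104 and 132 TPM, whereas Rangrf was highest in A with 83.5, 0 and 0. Reference genes also varied, with Gapdh at 1396, 4157 and 5884 TPM and Actb at 1638, 2065 and 1648.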
